A study of Arabidopsis thaliana with 16 samples.

Results

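The cytoplasmic poly(A)-binding proteins of Arabidopsis thaliana were followed as a family of 8 genes, PAB1 to PAB8, through 16 RNA-seq libraries of pollen tubes. The members were taken by locus identifier from the 33323 genes of the deposited count tables: PAB1 (AT1G34140), PAB2 (AT4G34110), PAB3 (AT1G22760), PAB4 (AT2G23350), PAB5 (AT1G71770), PAB6 (AT3G16380), PAB7 (AT2G36660) and PAB8 (AT1G49760). This rule uses locus identifiers and no measured value, and all 8 loci were present in every table.

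A cytoplasmic poly(A)-binding protein coats the poly(A) tail of an mRNA with RNA-recognition motifs at its amino-terminal side. It also contacts translation initiation factor eIF4G at the cap, and through a carboxy-terminal domain called MLLE it recruits proteins that carry a short PAM2 motif, among them the CID proteins. It is thereby tied both to translation and to the stability of mRNA, since deadenylases of the CCR4-NOT complex shorten the tail that it covers. In Arabidopsis the genes are sorted into classes by sequence and place of expression. PAB3 and PAB5 form a class known from reproductive tissue and pollen. PAB2, PAB4 and PAB8 form a broadly expressed class. PAB6 and PAB7 make up a further class, and PAB1 stands alone with a shortened protein.

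Pollen tubes of the Col-0 accession grew semi-in vivo, that is, they emerged from a cut pistil before RNA was taken. Plants were wild type (WT) or carried paps1-1, a mutant allele of PAPS1, a nuclear poly(A) polymerase that adds tails to new mRNAs. RNA of each of 8 samples was divided between a library primed with oligo(dT), which starts reverse transcription on poly(A), and one primed with random hexamers, which can start anywhere along an RNA. Ribosomal RNA was depleted in both kinds. The design therefore held 4 groups of 4 libraries: WT random hexamer, paps1-1 random hexamer, WT oligo(dT) and paps1-1 oligo(dT). Nothing in the labels states whether replicates were separate plants, pistils or growth rounds, nor how many pistils were pooled, so each p-value rests on a spread between samples that could be purely technical.

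Levels are given as counts scaled to a common total of gene counts per library (CPM, counts per 1000000). Gene counts ranged from 70006 in WT oligo(dT) replicate 3 to 5294715 in paps1-1 random hexamer replicate 1, so that 3 counts, the limit that a count of 0 allows, corresponded to between 0.567 and 42.9 CPM. WT oligo(dT) replicate 3 stood apart by its depth, with 2266 genes detected, and 34.0% of its stranded gene counts lay on the opposite strand, against 2.44 to 19.9% in the others. Pollen-tube markers (9 genes, led by the pectin methylesterase gene VGD1) were detected at 8 or 9 of 9 in random-hexamer libraries and at 6 to 9 of 9 in oligo(dT) libraries, as the tissue label would have it. Pistil markers (9 genes) took 0 to 0.0660% of gene counts over all libraries. They were detected at 3 to 7 of 9 in WT and at 7 or 8 of 9 in paps1-1 random-hexamer libraries. With oligo(dT) they were detected at 0 to 7 of 9, and CRC was the only one at 0 in every library. Genes of photosynthetic tissue (20 genes) took 0.0226 to 0.327% in all but the paired libraries of paps1-1 sample 3, in which they took 0.627% with random hexamers (95% Wilson interval 0.609 to 0.645%) and 0.959% with oligo(dT) (0.937 to 0.982%). PAPS1 itself was read at 102 to 216 CPM in WT and 72.9 to 217 CPM in paps1-1 random-hexamer libraries. This level does not check the genotype labels, because the labels do not say that the allele removes the transcript.

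In the RefSeq annotation of the TAIR10.1 assembly the members lie on chromosomes 1 (PAB1, PAB3, PAB5, PAB8), 2 (PAB4, PAB7), 3 (PAB6) and 4 (PAB2). PAB1 has the shortest coding sequence, of 1224 bases in 3 exons, and PAB5 the longest, of 2049 bases in 8 exons. Coding sequences were most alike for PAB3 and PAB5, with 74.7% identical bases over the aligned positions, followed by PAB2 and PAB8 with 72.0%, PAB2 and PAB4 with 66.8% and PAB4 and PAB8 with 66.3%, all of them pairs within a class. PAB6 and PAB7 were 51.7% identical to each other, and PAB7 was as near to PAB2 (52.7%), PAB8 (52.3%) and PAB4 (51.8%). The longest run of bases shared without a mismatch by any pair of member mRNAs was 26, between PAB3 and PAB5. A read shorter than that could not be told apart between them at that place. PAB6 overlaps an opposite-strand neighbour, AT3G16370, over 538 bases, and the counts used here are those on the strand of the gene.

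Together the 8 genes took 0.0436 to 0.179% of gene counts in a library. In WT random-hexamer libraries the family sum was 1510.1, 1248.5, 1792 and 1682 CPM in replicates 1 to 4 (mean 1558 ± 237, SD, n = 4). In paps1-1 random-hexamer libraries it was 1210.1, 879, 1111 and 1024 CPM (mean 1056 ± 140.4, SD, n = 4). Every WT sum lay above every paps1-1 sum, as did the CPM of 1.52% of the 12595 genes tested one by one. That share is for single genes and not for sums of 8 genes. No test was made of the sum because the members were picked as a set. Alone among the members tested, PAB5 was separated in this way, at 399.5 to 680.2 CPM in WT and 167 to 329 CPM in paps1-1. The sum of PAB2, PAB4 and PAB8 overlapped between genotypes, at 274 to 789 CPM in WT and 329 to 775 CPM in paps1-1. The nearest libraries, WT replicate 2 and paps1-1 replicate 1, had family shares with overlapping 95% Wilson intervals of 0.121 to 0.128% and 0.118 to 0.124% of gene counts. Pollen-tube markers summed to 2.22 to 3.36% in these WT and 1.15 to 3.14% in these paps1-1 libraries, pistil markers to 0.00328 to 0.0124% and 0.0115 to 0.0470%, and their part in the family sum was not tested. In a bulk sample a lower level from fewer transcribing cells and one from less RNA per cell cannot be told apart. With oligo(dT), the sums were 1393, 577, 1114 and 1119 CPM in WT and 865, 682, 436 and 494 CPM in paps1-1, and these groups overlapped.

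Levels of different genes were compared per kilobase of coding length in the 8 random-hexamer libraries of both genotypes, which are not selected by a poly(A) tail. PAB2 (201 ± 75.0 CPM per kb, SD, n = 8), PAB5 (195 ± 96.8) and PAB7 (178 ± 76.8) stood at the top. PAB6 (41.1 ± 24.7 CPM per kb), PAB4 (39.5 ± 24.6) and PAB8 (21.2 ± 17.4) followed, and PAB3 (5.90 ± 8.55) and PAB1 (1.82 ± 5.14) were lowest. Each of PAB2, PAB5 and PAB7 exceeded each of the other 5 genes in 8 of 8 libraries. In exact paired permutation tests over libraries (two-sided, on log2(CPM per kb + 1), adjusted by Benjamini-Hochberg over 28 pairs), 20 of 28 pairs of members differed. The smallest p that 8 libraries allow in this test is 0.00781, and the 20 pairs had adjusted p-values of 0.0129 or 0.0219.

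Neighbours in this order often did not differ beyond their spread. PAB2 was above PAB5 in 4 of 8 libraries (exact permutation test, adjusted p = 0.762), above PAB7 in 3 of 8 (adjusted p = 0.564), and PAB5 was above PAB7 in 5 of 8 (adjusted p = 0.525). The mean difference of PAB2 minus PAB5 was 0.13 ± 0.95 (SD, n = 8) on that log2 scale, and that of PAB5 minus PAB7 was 0.12 ± 0.42. PAB4 and PAB6 split the libraries 4 to 4 (adjusted p = 0.797). PAB6 and PAB8, PAB3 and PAB6, PAB3 and PAB8, and PAB1 and PAB3 were the remaining pairs past no threshold, with adjusted p-values of 0.171, 0.0729, 0.169 and 0.182 in the exact permutation tests. The order among the 3 high genes was therefore not resolved over these 8 libraries, and each mean and test here pools both genotypes. By genotype, PAB5 stood at 274 ± 61.2 CPM per kb in WT and 116 ± 37.4 in paps1-1 (SD, n = 4 each). PAB2 stood at 213 ± 93.2 and 190 ± 63.8, and PAB7 at 221 ± 55.2 and 134 ± 74.8. The pooled order is thus not that of a single genotype. Among the 5 low genes it was resolved in part: PAB4 lay above PAB1 and PAB3 in 8 of 8 libraries (exact permutation tests, adjusted p = 0.0129 each) and above PAB8 in 7 of 8 (adjusted p = 0.0219), and PAB6 and PAB8 each lay above PAB1 in 7 of 8 (adjusted p = 0.0219 each).

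**Figure D1:**
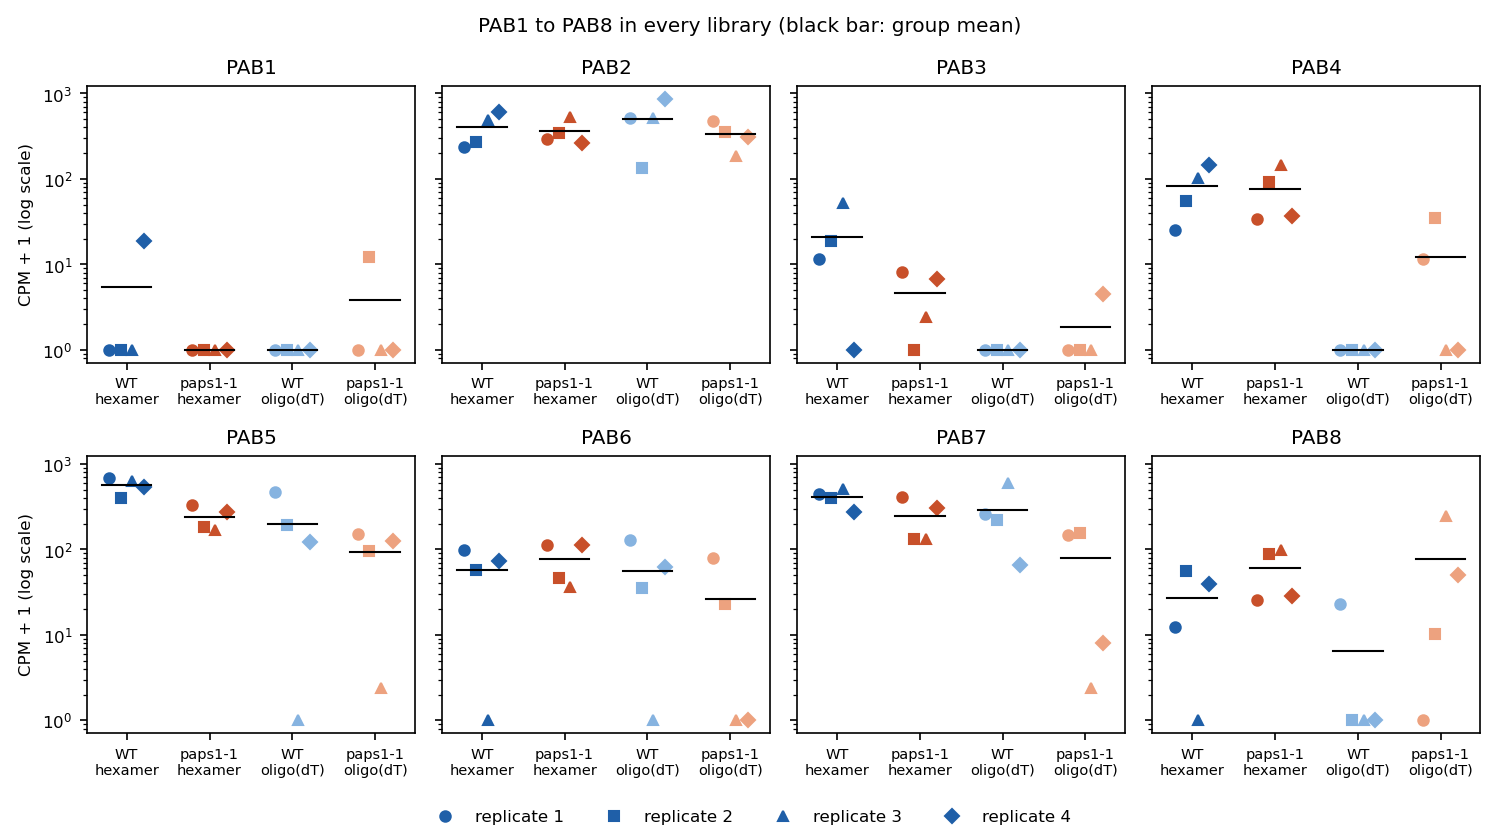
Level of each PAB gene in every library, as CPM + 1 on a log axis (a value of 1 is a count of 0), with 1 point per library, 4 libraries per group, marker shapes for replicates and a black bar at the group mean. PAB2, PAB5 and PAB7 sit highest, and PAB5 separates WT (399.5 to 680.2 CPM) from paps1-1 (167 to 329 CPM) with random hexamers. PAB1, PAB3 and PAB4 are at 0 in all 4 WT oligo(dT) libraries, and the share of all genes at 0 there was not counted.

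PAB5 and PAB3, the class known from pollen, are described first. PAB5 was read at 680.2, 399.5, 638 and 532 CPM in WT random-hexamer replicates 1 to 4, from 1973, 1582, 401 and 1076 counts. In paps1-1 it was read at 329, 182, 167 and 273 CPM, from 1741, 608, 119 and 474 counts. All 4 WT libraries were above all 4 paps1-1 libraries, and the group means were 562 ± 125 and 238 ± 76.5 CPM (SD, n = 4 each).

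PAB5 was the 1 of 7 tested members with such a separation, while 1.52% of the 12595 genes tested showed it in that direction. The edgeR quasi-likelihood test gave a log2 fold change (paps1-1 against WT) of -1.29 ± 0.65 (SE, unadjusted p = 0.0591, adjusted p = 1.00), which did not pass the threshold of 0.05. The median over all genes in this comparison was 0.38. As part of the family per kilobase, PAB5 made up 29.5 to 42.2% in WT and 14.1 to 25.0% in paps1-1 random-hexamer libraries, without overlap. This share rests on the same PAB5 counts as the CPM and is not a second observation.

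The pollen-tube markers also differed between these libraries, and their part in the PAB5 values was not tested. They summed to 3.36, 2.22, 3.15 and 2.53% of gene counts in WT random-hexamer replicates 1 to 4, and to 3.14, 1.33, 1.15 and 2.74% in paps1-1, and the widest 95% Wilson interval among them was 3.11 to 3.19% in WT replicate 3. The paps1-1 libraries with the lowest marker sums, replicates 2 and 3, were also those lowest in PAB5. The paps1-1 libraries other than replicates 2 and 3 had PAB5 at 273 and 329 CPM, where the lowest WT value was 399.5 CPM. The share of all genes with such a separation was not counted. Without paps1-1 samples 2 and 3 the fitted PAB5 log2 fold change was -0.71 (edgeR, unadjusted p = 0.301). Leaving out the lowest paps1-1 values of PAB5 moves the fold towards 0 by construction.

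**Figure D2:**
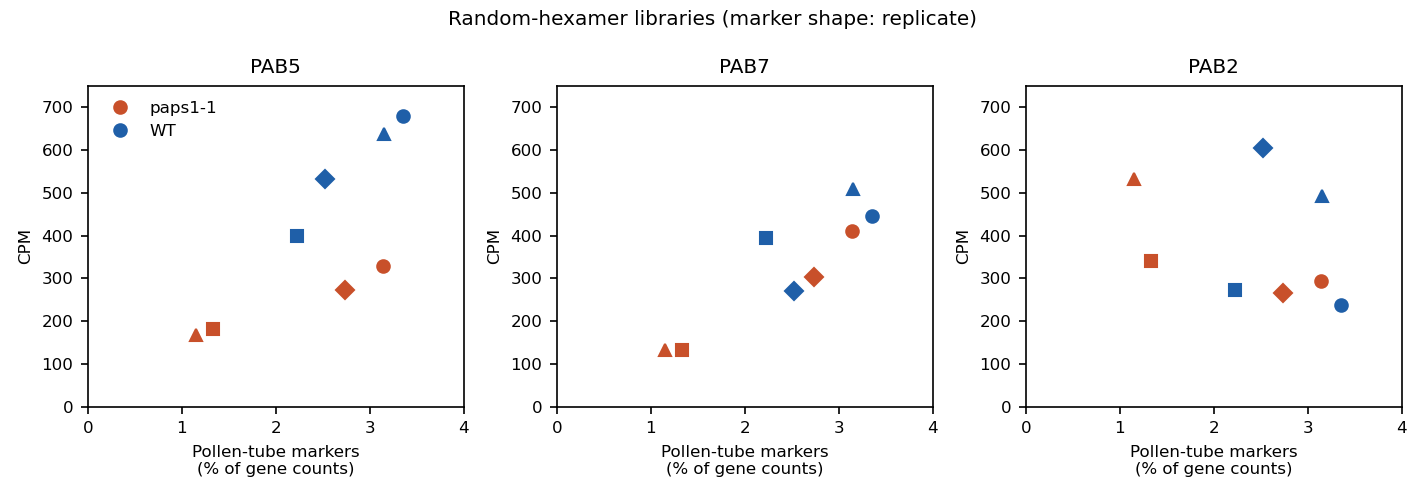
CPM of PAB5, PAB7 and PAB2 (vertical axes) against the summed share of 9 pollen-tube markers in percent of gene counts (horizontal axis) in the 8 random-hexamer libraries, with WT in blue, paps1-1 in orange and marker shapes for replicates. paps1-1 replicates 2 and 3, at 1.33 and 1.15% of markers, are lowest for PAB5 and PAB7, while PAB2 reaches 533 CPM in replicate 3.

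PAB3, the closest relative of PAB5, was low and uneven, with counts in 3 of 4 random-hexamer libraries of each genotype. It was read at 10.7, 17.7, 50.9 and 0 CPM in WT random-hexamer libraries and at 7.18, 0, 1.41 and 5.77 CPM in paps1-1. The groups overlapped, and the fitted log2 fold change of -2.12 ± 1.67 (SE, edgeR, adjusted p = 1.00) rested on 133 counts in WT and 49 in paps1-1. Per kilobase, PAB5 stood above PAB3 in every random-hexamer library, so the close pair in sequence was far apart in level.

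Among the broadly expressed class, PAB2 was high in both genotypes. Its random-hexamer values were 238.6, 273, 492 and 606 CPM in WT and 294, 341, 533 and 265 CPM in paps1-1. Both groups covered nearly the same range, and the edgeR estimate for paps1-1 against WT was -0.25 ± 0.58 on the log2 scale (SE, adjusted p = 1.00). The ratio of PAB2 to PAB5 counts within a library was 0.351, 0.683, 0.771 and 1.14 in WT and 0.895, 1.87, 3.18 and 0.970 in paps1-1 random-hexamer libraries. These ranges overlapped, with the highest values in paps1-1 replicates 2 and 3.

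PAB4 was read in every random-hexamer library, at 24.1, 53.5, 102 and 145 CPM in WT and at 33.4, 90.6, 143 and 35.8 CPM in paps1-1. The groups overlapped over nearly their whole range, with a log2 fold change of -0.26 ± 0.70 (SE, edgeR, adjusted p = 1.00). PAB8 was at 11.4, 54.3, 0 and 38.0 CPM in WT and at 24.6, 87.3, 98.4 and 27.7 CPM in paps1-1. Its highest values came from paps1-1 replicates 2 and 3, the libraries with the lowest pollen-tube marker sums, and edgeR put it at 0.86 ± 1.00 on the log2 scale (SE, adjusted p = 1.00). Without those libraries PAB8 was at 24.6 and 27.7 CPM in paps1-1, inside the WT range, and the fitted value was 0.27. Leaving out the highest paps1-1 values of PAB8 lowers the fold by construction.

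PAB7 resembled PAB5 in its pattern over libraries, though less sharply by genotype. It was read at 447, 394, 509 and 271 CPM in WT and at 411, 133, 132 and 303 CPM in paps1-1 random-hexamer libraries. paps1-1 replicates 2 and 3 were low and the other paps1-1 libraries lay within the WT range, so the groups overlapped. In edgeR the log2 fold change came to -0.68 ± 0.68 (SE, adjusted p = 1.00), and to 0.02 without paps1-1 samples 2 and 3. Those samples hold the lowest paps1-1 values of PAB7, so leaving them out raises the fold by construction. Over the 8 random-hexamer libraries, log2 CPM of PAB7 and PAB5 had a Pearson r of 0.851, given as a description because the libraries share differences in depth and marker content.

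PAB6, which shares a class with PAB7 but little of its sequence, was read at 98.3, 56.8, 0 and 71.6 CPM in WT and at 111, 45.0, 35.2 and 112 CPM in paps1-1. The WT library at 0 was replicate 3, in which 3 counts equal 4.77 CPM. The groups overlapped, at a log2 fold change of 0.30 ± 0.90 in edgeR (SE, adjusted p = 1.00). PAB1 had counts in only 1 random-hexamer library, 36 counts or 17.8 CPM in WT replicate 4, and in 1 oligo(dT) library, 51 counts or 11.4 CPM in paps1-1 replicate 2. It did not pass the filter on low counts and was not tested.

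In the random-hexamer comparison of genotypes, 0 of the 7 members tested passed the edgeR threshold, against 9 of 12595 genes (0.0715%). No member was below an unadjusted p of 0.05 in edgeR, as 2.33% of all genes were. DESeq2, which called 37 of 11899 genes (0.311%), called no member either. The DESeq2 test gave PAB5 an unadjusted p of 0.0301 (adjusted p = 0.747), where 5.99% of all genes were under 0.05. With DESeq2 size factors, edgeR gave PAB5 an unadjusted p of 0.0331 (adjusted p = 0.988), where 3.34% of all genes were under 0.05. The median member log2 fold change was -0.26, with 2 of 7 above 0, while the median over all genes was 0.38, with 65.7% above 0.

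**Figure D3:**
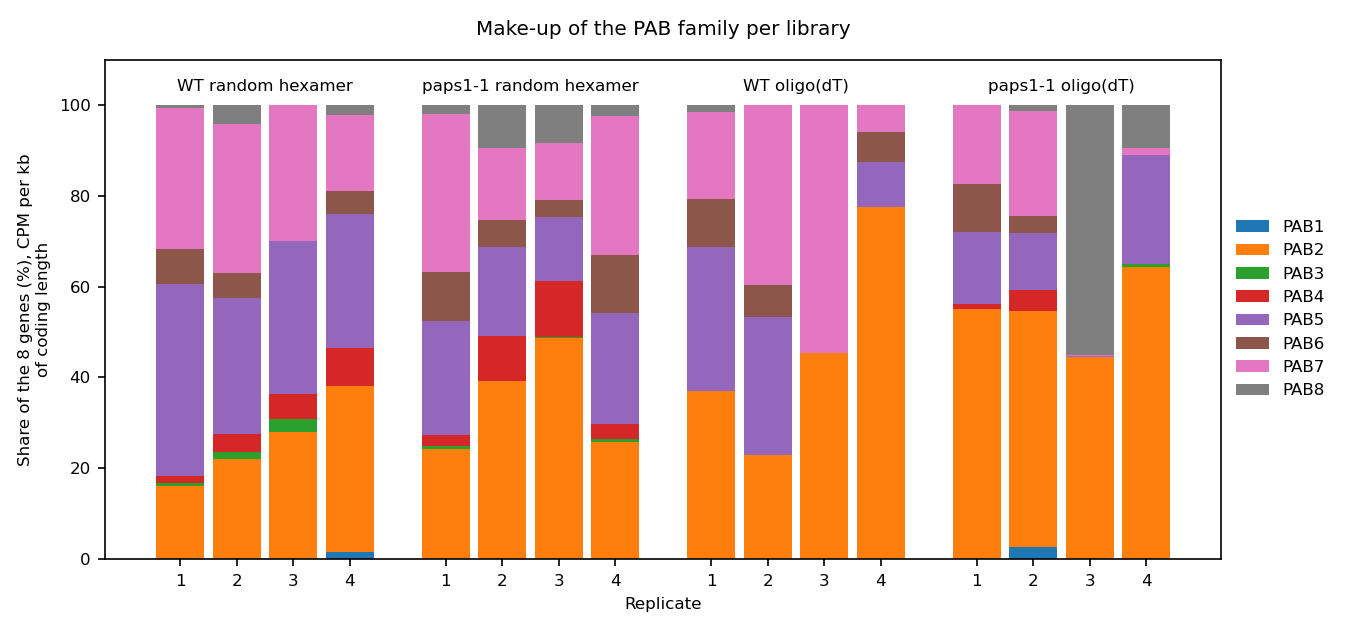
Make-up of the PAB family in each library, with each gene's CPM per kilobase of coding length stacked as a percentage of the sum over the 8 genes, grouped by genotype and priming (4 replicates each). PAB2, PAB5 and PAB7 together fill 74.5 to 91.7% of every random-hexamer bar, and PAB8 fills 55.0% of the bar of paps1-1 oligo(dT) replicate 3.

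With oligo(dT) priming, fewer members were read, and 28 of 64 member values were at 0, against 11 of 64 with random hexamers. PAB2 was the member read in strength in all 8 oligo(dT) libraries, at 513, 132, 514 and 870.3 CPM in WT and at 479, 357.5, 187 and 309.5 CPM in paps1-1. The value of 514 CPM in WT replicate 3 rests on 36 counts. PAB2 made up 22.9 to 77.5% of the family per kilobase in these libraries and 16.1 to 48.7% in random-hexamer libraries. The genotypes overlapped, with a log2 fold change of -0.32 ± 1.25 (SE, edgeR, adjusted p = 1.00).

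PAB5 with oligo(dT) was at 474.5, 190.1, 0 and 122 CPM in WT and at 149.8, 93.9, 1.39 and 125 CPM in paps1-1. The lowest library of each genotype was replicate 3, and the log2 fold change of -0.99 ± 1.56 (SE, edgeR, adjusted p = 1.00) was smaller than its error. PAB7 was at 257, 221, 599.9 and 65.4 CPM in WT and at 147, 154, 1.39 and 7.03 CPM in paps1-1, with a log2 fold change of -1.25 ± 1.57 (adjusted p = 1.00). The paps1-1 values of replicates 3 and 4 came from 1 and 4 counts. PAB6 was at 126, 34.0, 0 and 62.0 CPM in WT and at 78.4, 22.3, 0 and 0 CPM in paps1-1, with a log2 fold change of -0.80 ± 2.33 (adjusted p = 1.00).

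The remaining 4 genes did not pass the filter on low counts, which a gene must meet in at least 4 libraries. PAB8 had counts in 1 WT oligo(dT) library (22.1 CPM, replicate 1) and in 3 of 4 paps1-1 libraries, at 9.14, 246.5 and 49.2 CPM in replicates 2 to 4. The value of 246.5 CPM, 177 counts, belongs to paps1-1 replicate 3, the library with the highest share of photosynthesis genes. PAB4 was at 0 in WT and at 10.7, 33.9, 0 and 0 CPM in paps1-1, and PAB3 had 2 counts in 1 paps1-1 library. Of the 4 members tested with edgeR, 0 passed the threshold and 0 were below an unadjusted p of 0.05, against 1 of 5101 genes called (0.0196%) and 1.69% below that unadjusted p. DESeq2 called no member and 51 of 4896 genes (1.04%). All 4 had log2 fold changes below 0, with a median of -0.90. Over all genes the median was 0.43, with 63.5% above 0. With no filter, 4 of 8 members lay above 0, with a median of 1.35. All genes then had a median of 1.47, with 68.7% above 0. Of the members above 0 there, PAB1, PAB3 and PAB4 had no count in WT, so their values are no measure of size.

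**Figure D4:**
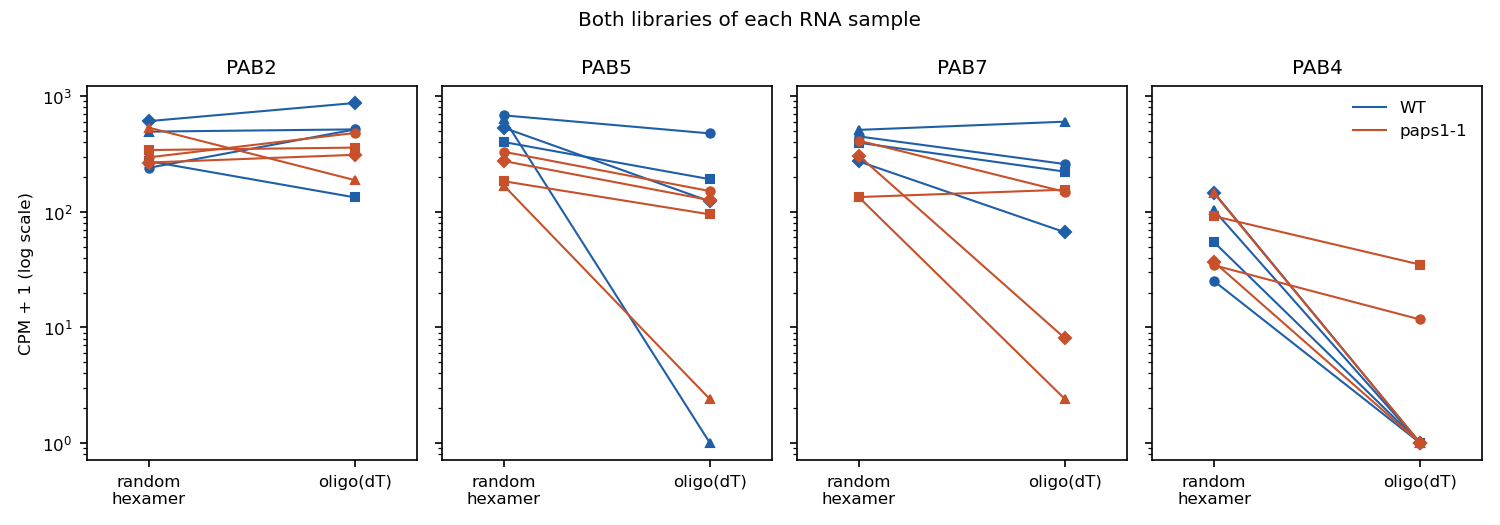
Both libraries of each RNA sample for PAB2, PAB5, PAB7 and PAB4, as CPM + 1 on a log axis, with 1 line per sample (WT blue, paps1-1 orange, marker shapes for replicates). PAB5 and PAB4 slope downwards from random hexamer to oligo(dT) in 8 of 8 samples, whereas PAB2 was higher with oligo(dT) in 6 of 8. The share of all genes lower in 8 of 8 samples was not counted. Fitted log2 fold changes of oligo(dT) against random hexamer, a different measure, were above 0 for 16.9% of all genes in WT and 17.2% in paps1-1.

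Because both libraries of a sample came from the same RNA, the priming methods could be compared within samples. PAB5 and PAB4 had lower CPM with oligo(dT) in 8 of 8 samples. The share of all genes that did so was not counted, so this does not set PAB5 and PAB4 apart from other genes. In the fits of this comparison, a different measure from CPM within samples, 16.9% of all genes lay above 0 in WT and 17.2% in paps1-1. PAB3 was lower in 6 samples and tied at 0 in the other two, and PAB6 was lower in 6, higher in 1 and tied in 1. PAB7 was lower in 6 of 8, and PAB8 was lower in 4, higher in 3 and tied in 1. PAB2 went the other way in CPM, being higher with oligo(dT) in 6 of 8 samples, with log2 ratios from -1.51 to 1.11.

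PAB4 showed the widest gap in WT. It had 70, 212, 64 and 294 counts in the WT random-hexamer libraries and 0 counts in all 4 WT oligo(dT) libraries. The share of all genes in that state was not counted, so it does not set PAB4 apart. Genes detected numbered 2266 to 7750 in WT oligo(dT) libraries and 6043 to 16230 in WT random-hexamer libraries. Set against 3 counts in each oligo(dT) library, a mean of 12.6 CPM, PAB4 was at least 6.46-fold lower with oligo(dT) than its random-hexamer level of 81.2 ± 53.4 CPM (SD, n = 4). The bound covers counting error only and rests in large part on WT replicate 3, whose 3 counts equal 42.9 CPM. In edgeR the priming comparison in WT gave PAB4 an unadjusted p of 0.000596 and an adjusted p of 0.0506. That p passed with DESeq2 (adjusted p = 0.00115, in a test that called 1743 of 10338 genes, 16.9%), without the block for RNA sample (adjusted p = 0.0228) and without paps1-1 replicate 4 (adjusted p = 0.0319), and was 0.487 without WT replicate 2. In paps1-1, PAB4 kept 31 and 152 counts in oligo(dT) replicates 1 and 2, with a log2 fold change of -4.62 ± 2.76 (SE, adjusted p = 0.520).

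PAB3 was at 0 in WT oligo(dT) libraries as well, at least 1.58-fold below 19.8 ± 22.0 CPM. In paps1-1 it had 49 counts with random hexamers, 38 of them in replicate 1, and 2 counts with oligo(dT), both in replicate 4. The group means were 3.59 ± 3.43 and 0.879 ± 1.76 CPM (SD, n = 4 each), close to the limit of detection, so no fold is given. For PAB5, log2 fold changes of oligo(dT) against random hexamer were -2.91 ± 1.33 in WT (SE, edgeR, adjusted p = 0.219) and -2.49 ± 1.33 in paps1-1 (adjusted p = 0.473). For PAB7 they were -1.87 ± 1.21 in WT (adjusted p = 0.338) and -3.81 ± 1.76 in paps1-1 (adjusted p = 0.409), and DESeq2, which called 943 of 10338 genes there (9.12%), called the latter at an adjusted p of 0.0320. In paps1-1 samples 3 and 4, PAB7 had 94 and 526 counts with random hexamers and 1 and 4 with oligo(dT).

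For PAB2 the fitted log2 fold changes were -0.85 ± 1.16 in WT (SE, edgeR, adjusted p = 0.651) and -0.73 ± 1.19 in paps1-1 (adjusted p = 0.814). The sign of the WT value depends on the scaling: with the size factors of DESeq2 in place of TMM it was 0.29. That change of scaling also moved the median over all genes from -3.92 to -3.16 in WT and from -2.53 to -2.08 in paps1-1, so most genes had fewer counts with oligo(dT) on either scale, and PAB2 lay above that median under both. PAB6 had -0.89 ± 1.91 in WT (adjusted p = 0.795) and -4.03 ± 2.53 in paps1-1 (adjusted p = 0.538). PAB8 had -6.23 ± 4.13 in WT (adjusted p = 0.343) and -2.27 ± 2.57 in paps1-1 (adjusted p = 0.727). The size of the WT value is poorly fixed: it was -2.71 without WT replicate 2, -3.11 without WT replicate 4, -9.51 without WT replicate 1, -2.20 without the block for RNA sample and -2.95 with DESeq2, beside group means of 25.9 ± 24.7 CPM with random hexamers and 5.52 ± 11.0 CPM with oligo(dT) (SD, n = 4 each).

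In the edgeR fit of the priming comparisons, 0 of 7 members passed in WT, against 163 of 14190 genes (1.15%), and 0 of 7 passed in paps1-1, against 40 genes (0.282%). At an unadjusted p under 0.05 there were 3 members in WT (PAB3, PAB4 and PAB5), where 2868 of 14190 genes (20.2%) were, and 1 in paps1-1 (PAB7), where 1581 (11.1%) were. Of all genes, 16.9% in WT and 17.2% in paps1-1 lay above 0, and all 7 members lay below 0 in both genotypes. Their median log2 fold change was -2.91 in WT, or -1.87 with PAB3 and PAB4 placed at their bounds, beside -3.92 over all genes, and it was -3.29 in paps1-1 beside -2.53 over all genes.

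**Figure D5:**
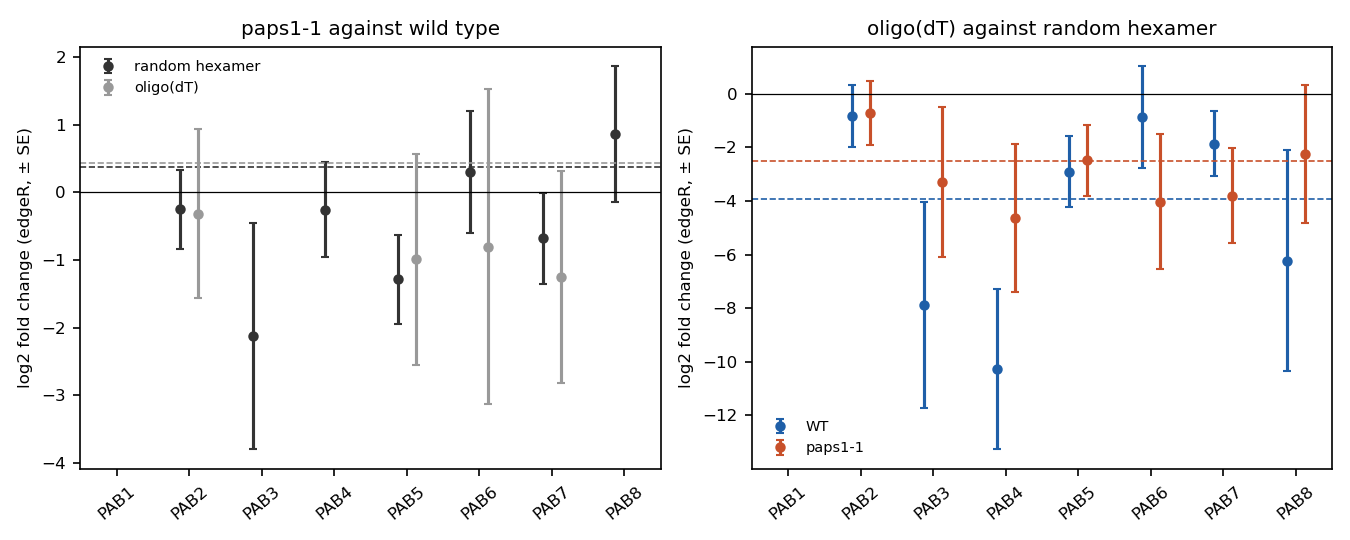
Log2 fold changes from edgeR with standard errors for the members tested, paps1-1 against WT on the left (random hexamer dark, oligo(dT) grey) and oligo(dT) against random hexamer on the right (WT blue, paps1-1 orange); dashed lines mark the median over all genes of each comparison. PAB5 has the smallest unadjusted p of the genotype comparisons at -1.29, and PAB3 and PAB4 in WT on the right depend on the small count added during fitting because their oligo(dT) counts are 0.

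The interaction asks whether the gap between oligo(dT) and random-hexamer libraries differed between genotypes, which is the quantity that the title of the study ties to poly(A)-tail length. PAB2 gave the most precise estimate, 0.12 ± 1.66 on the log2 scale (SE), which allows differences of more than 2-fold in either direction. PAB5 followed with 0.42 ± 1.94, then PAB7 with -1.94 ± 2.15, PAB6 with -3.14 ± 3.28 and PAB8 with 3.96 ± 4.52. The values of PAB4 (5.65 ± 3.91) and PAB3 (4.59 ± 5.94) contain the WT groups with no counts and are no measure of size. Adjusted p-values were 1.00 for all 7 members in edgeR, with 0 below an unadjusted 0.05, and none was called by DESeq2. Over all 14190 genes edgeR called 0 (0%), with 231 genes (1.63%) at an unadjusted p under 0.05, and DESeq2 called 39 (0.275%). These errors do not allow a statement on the tail length of any PAB transcript.

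The partners of poly(A)-binding proteins were examined as 4 lists, none of which had a gene past the edgeR threshold in any of the 5 comparisons. Of translation initiation and release factors, 16 of 17 were tested between genotypes with random hexamers, and 11 of them had log2 fold changes above 0, with a median of 0.50 beside 0.38 over all genes. eIF4E1, the cap-binding factor, stood at 1.86 ± 1.48 (SE), with 4.65 ± 5.40 CPM (SD, n = 4) in WT and 27.2 ± 21.1 in paps1-1. AT1G72730, a DEAD-box helicase, stood at 2.07 ± 1.65. With oligo(dT), 7 were tested and 4 were above 0 (median 0.34), including the release factor eRF1-1 at 2.81 ± 1.88, while the cap-binding eIFiso4E stood at -1.60 ± 1.74.

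Of the proteins with a PAM2 motif, the CID and LARP1 families, 12 of 16 were tested with random hexamers, and 10 were above 0 (median 0.60). AT4G14270, a protein annotated as interacting with poly(A)-binding protein, had the smallest unadjusted p (0.0559), with 9.05 ± 10.7 CPM in WT and 65.6 ± 58.0 in paps1-1 (SD, n = 4) and a log2 fold change of 2.33 ± 1.17 (SE, adjusted p = 1.00). CID10 stood at 1.98 ± 1.29. With oligo(dT), 5 of 7 were above 0 (median 0.51), with CID1 (also called ERD15) at 1.20 ± 1.26 and CID7 at -3.86 ± 2.56.

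Of the deadenylation list, 18 of 22 genes were tested with random hexamers and 15 were above 0 (median 0.60). AT1G02080, annotated as a transcription regulator, was at 104 ± 56.1 CPM in WT and 251 ± 140.1 in paps1-1 (SD, n = 4), with a log2 fold change of 0.92 ± 0.63, and AT5G35430 stood at 2.03 ± 1.56. With oligo(dT), 3 of 5 were above 0 (median 0.26). AT5G18230, of the NOT2/NOT3/NOT5 family, had 1 count in the WT oligo(dT) libraries and 631 in paps1-1 (90.4 ± 50.02 CPM, SD, n = 4), a 357-fold ratio of pooled, depth-scaled counts (95% exact interval 63.8 to 14120, counting error only), with an unadjusted edgeR p of 0.0193 and an adjusted p of 1.00. DESeq2 called it at an adjusted p of 0.00501. The other gene named there, AT1G15920, stood at 1.42 ± 2.52. Among nuclear poly(A)-binding proteins and poly(A) polymerases, 3 of 7 were above 0 with random hexamers (median -0.10) and 2 of 6 with oligo(dT) (median -0.26). PAPS3 stood at -0.55 ± 1.04 and -2.11 ± 2.58 in these comparisons, AT5G10350 at 0.52 ± 1.11 with random hexamers, and PABN1 at 1.46 ± 2.52 with oligo(dT).

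Between priming methods, the partner genes mostly lay below 0 like the members. In paps1-1, 17 of 17 translation factors, 9 of 13 PAM2 proteins, 17 of 18 deadenylation genes and 5 of 7 nuclear factors did so, where 17.2% of all genes lay above 0. eIF4G, the scaffold that poly(A)-binding protein contacts at the cap, was at 296 ± 101 CPM (SD, n = 4) with random hexamers and 10.5 ± 15.3 with oligo(dT) in paps1-1, a log2 fold change of -6.77 ± 1.96 (SE, edgeR, unadjusted p = 0.000552, adjusted p = 0.124). It passed with the size factors of DESeq2 (adjusted p = 0.0403), with the DESeq2 test (adjusted p = 0.00127) and without WT replicate 3 (adjusted p = 0.00238). eIF4B2 (-7.77 ± 3.02), LARP1b (-6.48 ± 3.09), CID3 (-4.73 ± 2.28), AT1G02080 (-3.64 ± 1.76), AT5G65260 (-5.18 ± 3.40) and PAPS3 (-2.98 ± 2.81) were the other genes of smallest p in their lists, and the DESeq2 test called eIF4B2, CID3 and AT1G02080 among them, as it did 943 of 10338 genes (9.12%). AT1G06450 was at 0 with oligo(dT) there, at least 8.02-fold below 22.4 ± 1.99 CPM.

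In WT, 13 of 17 translation factors, 11 of 13 PAM2 proteins, 15 of 18 deadenylation genes and 6 of 7 nuclear factors lay below 0, where 16.9% of all genes lay above 0. Several were at 0 in all 4 WT oligo(dT) libraries, as PAB4 was. eIFiso4G2 was at least 3.51-fold below 44.1 ± 22.5 CPM, CID4 at least 3.37-fold below 42.3 ± 18.2, LARP1b at least 4.83-fold below 60.7 ± 51.0 and AT5G10960 at least 2.30-fold below 28.9 ± 15.8. eRF1-1 stood at -7.55 ± 2.75, PAPS1 at -2.35 ± 1.69 and PABN1 at -3.96 ± 3.23. AT5G18230 had 613 counts with random hexamers against its 1 count with oligo(dT), a 316-fold ratio (95% exact interval 56.5 to 12498). The DESeq2 test called eIFiso4G2, CID4, LARP1b, AT5G10960, eRF1-1 and AT5G18230 in this comparison, where it called 1743 of 10338 genes.

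Genes whose log2 CPM ran most alike to the 3 high members over the 8 random-hexamer libraries were found by Pearson r among the 12594 other genes tested there. For PAB2 they were PEX11D, a peroxisomal protein (r = 0.994), peroxidase 71 (AT5G64120, 0.974) and EMB3119, a ribose 5-phosphate isomerase (0.957). PAB4 ranked 21st for PAB2, at 0.928. For PAB5 they were SYP72, a syntaxin (0.981), the serine carboxypeptidase-like gene scpl38 (0.970) and SDG4, a SET-domain protein (0.963). For PAB7 they were AT1G12150 (0.994), the pollen receptor-like kinase PRK1 (0.987), which is one of the pollen-tube markers, and AT5G10950 (0.985). PAB5 and PAB7 were negatively related to PAB8, at -0.708 and -0.716, and PAB2 had r values of -0.05 with PAB5 and -0.35 with PAB7. All of these are descriptions of 8 libraries that share depth and sample make-up, without a test.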

How the data were processed

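The deposited files hold, for each library, read counts per gene that the authors made with STAR on TAIR10, per the submitters' processing notes; for the STAR version, annotation release and trimming, the sources used here give nothing. Of the 3 deposited columns of counts, the gene-strand column was used. Rows that name no gene (4 per table, holding 55.1 to 99.6% of reads) stayed out of library sizes and tests. Names, coding lengths and overlaps came from RefSeq's annotation of TAIR10.1, a different build label, so no coordinates or sequences are given; coding sequences were aligned with MAFFT 7.526. Its symbol table holds 32835 genes.

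The test across genes was that of edgeR 4.0.16 (quasi-likelihood, TMM, filterByExpr with a minimum count of 10 and total of 15, Benjamini-Hochberg, threshold 0.05) in R 4.3.3. Genotypes were compared within each priming method (8 libraries). Priming and interaction came from 1 fit of 16 libraries blocked by RNA sample, because the labels state that each sample was divided. SE was obtained from the log2 fold change and its F statistic. Levels per kilobase were compared by exact sign-flip tests in SciPy 1.17.1, with an offset of 1. For a group with no count, a fold is a bound against 3 counts per library, averaged. Intervals (95%) are Wilson for shares of counts and exact (Clopper-Pearson) for ratios of pooled counts, and bounds and intervals cover counting error only, since no molecular identifiers are given. No pair of replicates agreed within sampling noise (chi-square over degrees of freedom 20.5 or more), and each was counted as its own sample. The scripts were tested on simulated data.

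All 8 members are named, with the 2 genes of smallest p from each partner list in each genotype and priming comparison and the 3 genes most alike to each of the 3 highest members. The rule for members uses no measured value, but the family and the lists were chosen with earlier results of these data known. Alternatives were DESeq2 1.42.0 (test, or size factors only), no filter, counts without regard to strand, the replicate block added or removed, another offset (0.1), and leaving out libraries.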

Additional observations from a re-analysis of the deposited data

Results flagged for a closer look

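Of 28 groups of 4 libraries in which a member had any count, 4 held 1 library far from the other 3. In each case a single library held all counts of that gene, which puts it far from the rest by construction, so the usual chance rate of about 1 group in 20 does not apply. PAB1 was at 17.8 CPM in WT random-hexamer replicate 4 and at 11.4 CPM in paps1-1 oligo(dT) replicate 2, PAB3 was at 3.52 CPM in paps1-1 oligo(dT) replicate 4, and PAB8 was at 22.1 CPM in WT oligo(dT) replicate 1.

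Counts on the strand opposite to PAB2, which entered no comparison other than the alternative on counts without regard to strand, separated the genotypes with oligo(dT). In that alternative the PAB2 log2 fold change between genotypes was -0.036 in place of -0.32. They were 13, 123, 100 and 97 in paps1-1 replicates 1 to 4, of which the lowest equals 4.49 CPM, and 0 in all 4 WT libraries. Over all genes, the opposite strand took 4.80 to 19.9% of stranded gene counts in these paps1-1 libraries and 4.18 to 34.0% in the WT ones, and the part of this in the PAB2 counts was not tested. Among 7976 genes with at least 10 opposite-strand counts over the oligo(dT) libraries, 10 (0.125%) had all paps1-1 libraries above all WT libraries. With random hexamers, 70 of 7757 genes (0.902%) did, and no PAB gene was among them. No annotated gene overlaps PAB2 in TAIR10.1. Other members also had opposite-strand counts, without separating the genotypes. Among them were 78 for PAB3 in paps1-1 oligo(dT) replicate 3 and 52 for PAB7 in WT oligo(dT) replicate 4. PAB8 had 27 in WT random-hexamer replicate 3, where its gene-strand count was 0. Without regard to strand, its log2 fold change between genotypes with random hexamers was 0.46 in place of 0.86.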

How the results depend on the processing

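Members past the threshold numbered 0 in all 5 comparisons and stayed at 0 under every alternative, except that the DESeq2 test called 1 in paps1-1 between primings (PAB7) and 1 in WT (PAB4), that WT also gave 1 (PAB4) with no replicate block, and that leaving out single replicates gave 0 to 1 in WT. Pairs of members past the threshold numbered 20, and 14 (oligo(dT) libraries) to 22 (without WT replicate 3) otherwise. Of 445 member fold changes under alternatives, 417 kept direction and call, 24 changed sign and 4 became called. Without both paps1-1 samples 2 and 3 the sign changed for PAB7 (0.019) and for PAPS3 (0.23) and AT5G10350 (-0.11) with random hexamers, and for PAB6 (0.049), PAB2 (0.19) and PABN1 (-0.46) with oligo(dT). Between primings in WT, PAB6 was 0.34 with the DESeq2 test and PAB2 0.29 with that test and with DESeq2 size factors. The PAB2 interaction was -0.42 with either and -0.074 with no filter. Leaving out single replicates spanned 0 for PAB4 (-0.47 to 0.017) and PAB6 (-0.12 to 1.10) between genotypes with random hexamers, for PAB2 (-0.79 to 0.19), PAB5 (-1.59 to 0.16) and PAB6 (-2.85 to 0.25) with oligo(dT), for PAB2 between primings in WT (-0.93 to 0.15), and for the interaction of PAB2 (-0.50 to 0.72) and PAB5 (-0.62 to 1.37). The cause of these changes was not tested.

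Replicate numbers were not taken as pairs across genotypes. Same-numbered deviations correlated at -0.07 to 0.30 with random hexamers and -0.07 to 0.22 with oligo(dT). Differently numbered ones were not correlated, so these values cannot decide whether the numbers pair the genotypes. With the replicate block, calls over all genes went from 9 to 15 and from 1 to 4 between genotypes, with 0 members. PAB5 with random hexamers was then -1.42 (edgeR, unadjusted p = 0.0105, adjusted p = 0.820), where 4.14% of all genes were under an unadjusted p of 0.05. Without the block, priming calls over all genes went from 163 to 227 in WT and from 40 to 16 in paps1-1. Counts of all genes called also moved by over 1.5 times with the DESeq2 test (37 and 51 between genotypes, 1743 and 943 between primings, 39 for the interaction), with no filter (47 with random hexamers, 2 with oligo(dT), 87 between primings in WT), with DESeq2 size factors (7 with oligo(dT), 105 and 61 between primings, 4 for the interaction), on counts without regard to strand (2 with oligo(dT)) and without both paps1-1 samples 2 and 3 (0 with oligo(dT), 52 and 2 between primings). Leaving out single replicates gave 4 to 11 with random hexamers, 0 to 3 with oligo(dT), 32 to 242 and 16 to 215 between primings in WT and paps1-1, and 0 to 2 for the interaction. Depth is one limit of the oligo(dT) values: in WT replicate 3 a gene below 42.9 CPM could be missed.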
